A study of Mus musculus with 15 samples.

Results

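The genes described here are 8 genes of the red cell and platelet lineages, Hbb-bs, Klf1, Gata1, Epor, Pf4, Ppbp, Gp9 and Gp1bb, out of 34245 genes in the differentiation count table of a study of mouse bone marrow derived macrophages. They were taken as the rows whose gene symbol is one of these names, and each name matched 1 row. In a separate table of 25965 genes, from macrophages given the cytokine IL4, 7 of the 8 have a row, and Hbb-bs is not analysed there. All 15 libraries came from bone marrow of male C57BL/6 mice aged 8 to 10 weeks, cultured in CSF1, the growth factor on which macrophages depend. Precursors were the non-adherent cells after 2 days at 0.6 ng/ml CSF1 in 15% serum. Immature macrophages had the same 2 days and then 4 days at 12 ng/ml in 10% serum. Mature macrophages had 1 day at 0.6, 2 days at 12 and 7 days at 120 ng/ml, so they did not pass through the immature schedule. Macrophages given IL4 had 2 more days in fresh 120 ng/ml CSF1 with 20 ng/ml IL4, and unstimulated macrophages had the same 2 days without IL4. There were 3 libraries in each of the 5 groups, numbered by mouse in the labels. The last serum was also 10% for mature, IL4 and unstimulated macrophages. Serum, CSF1 dose, culture time and adherence changed together between precursors and the later stages, so their parts cannot be told apart. Between immature and mature macrophages the last serum was the same. CSF1 dose and culture time changed together there, and their parts cannot be told apart either.

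Red cells and platelets arise from a shared marrow progenitor. Gata1 encodes the zinc finger factor that both lineages need, Klf1 encodes the factor that switches on adult beta globin, and Epor encodes the receptor for erythropoietin, the hormone that keeps erythroid cells alive. Hbb-bs encodes a beta chain of adult hemoglobin in C57BL/6 mice. Megakaryocytes, the parents of platelets, load their alpha granules with the CXC chemokines Pf4 (platelet factor 4) and Ppbp (pro-platelet basic protein), and place glycoprotein IX (Gp9) and the beta chain of glycoprotein Ib (Gp1bb) on the surface as parts of the receptor for von Willebrand factor. Pf4 is also made by macrophages, and Epor and Klf1 are known from the macrophages of erythroblastic islands, on which red cell precursors mature.

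The promoters of 5 of the genes are shown because their stage patterns differ: Hbb-bs, Gp9 and Ppbp were low or undetected after the precursor stage, and Pf4 was not. Epor had its lowest group mean in mature macrophages, where its range overlapped that of precursors. Each line gives 300 bases, 250 before and 50 from the RefSeq start onward, from RefSeq on GRCm38.p6, written 5′ to 3′ on the strand of the gene. The windows are chr7:103827879-103828178 (minus strand) for Hbb-bs, chr9:21963527-21963826 (minus strand) for Epor, chr5:90772185-90772484 (plus strand) for Pf4, chr5:90768268-90768567 (plus strand) for Ppbp and chr6:87777820-87778119 (plus strand) for Gp9. Capitals mark letters that match a GATA motif (GATAA, or TTATC for the other strand), a KLF motif (CCNCNCCC or GGGNGNGG) or a TATA motif (TATAAA or TTTATA).
Hbb-bs: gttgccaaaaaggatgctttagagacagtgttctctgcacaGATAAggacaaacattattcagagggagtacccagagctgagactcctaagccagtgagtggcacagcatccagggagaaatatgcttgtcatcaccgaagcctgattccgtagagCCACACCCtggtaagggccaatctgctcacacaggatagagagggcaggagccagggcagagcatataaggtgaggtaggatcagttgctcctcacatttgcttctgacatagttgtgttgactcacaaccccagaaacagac
Epor: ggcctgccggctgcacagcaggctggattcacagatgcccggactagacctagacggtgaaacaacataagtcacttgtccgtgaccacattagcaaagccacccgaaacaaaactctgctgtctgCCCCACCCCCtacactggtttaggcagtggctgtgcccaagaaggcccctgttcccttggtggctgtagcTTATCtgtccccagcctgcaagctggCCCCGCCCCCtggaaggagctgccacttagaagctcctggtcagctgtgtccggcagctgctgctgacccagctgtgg
Pf4: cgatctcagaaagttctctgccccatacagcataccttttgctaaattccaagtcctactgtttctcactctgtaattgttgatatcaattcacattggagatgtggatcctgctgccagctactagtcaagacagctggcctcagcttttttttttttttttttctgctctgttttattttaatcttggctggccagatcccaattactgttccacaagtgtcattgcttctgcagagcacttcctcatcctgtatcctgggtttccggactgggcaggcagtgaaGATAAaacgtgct
Ppbp: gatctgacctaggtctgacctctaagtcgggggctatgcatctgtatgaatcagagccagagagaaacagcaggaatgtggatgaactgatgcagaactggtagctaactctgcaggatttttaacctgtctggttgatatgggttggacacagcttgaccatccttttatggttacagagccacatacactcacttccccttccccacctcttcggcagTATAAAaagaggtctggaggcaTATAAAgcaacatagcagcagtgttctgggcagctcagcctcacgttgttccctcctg
Gp9: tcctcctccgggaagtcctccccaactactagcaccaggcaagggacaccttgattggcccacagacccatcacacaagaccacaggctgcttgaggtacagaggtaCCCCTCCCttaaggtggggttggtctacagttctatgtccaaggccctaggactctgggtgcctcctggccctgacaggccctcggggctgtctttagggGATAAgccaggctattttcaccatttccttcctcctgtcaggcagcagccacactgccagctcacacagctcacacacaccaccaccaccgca

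Read from the start base as 1, Hbb-bs held the GATA letters at -209 and the KLF letters at -93. Epor held TTATC at -54 and KLF letters at -124, -122, -28 and -26, the first pair and the second pair each overlapping. Gp9 held GATA letters at -43 and KLF letters at -143. The only GATA match of Pf4 lay after the start, at 38, and Ppbp had no GATA or KLF match and TATA matches at -30 and -8. Among all 8 genes, 5 windows held the GATA letters and 5 held the KLF letters. The same letters were in 25.4% and 49.5% of 32851 mouse promoters of this length, TATAAA was in 13.6%, and the ETS letters GGAAG or CTTCC were in 71.4%. For Epor no GENCODE M21 transcript starts inside the RefSeq window on the strand of the gene. These matches describe letters only, and binding was not measured.

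**Figure D1:**
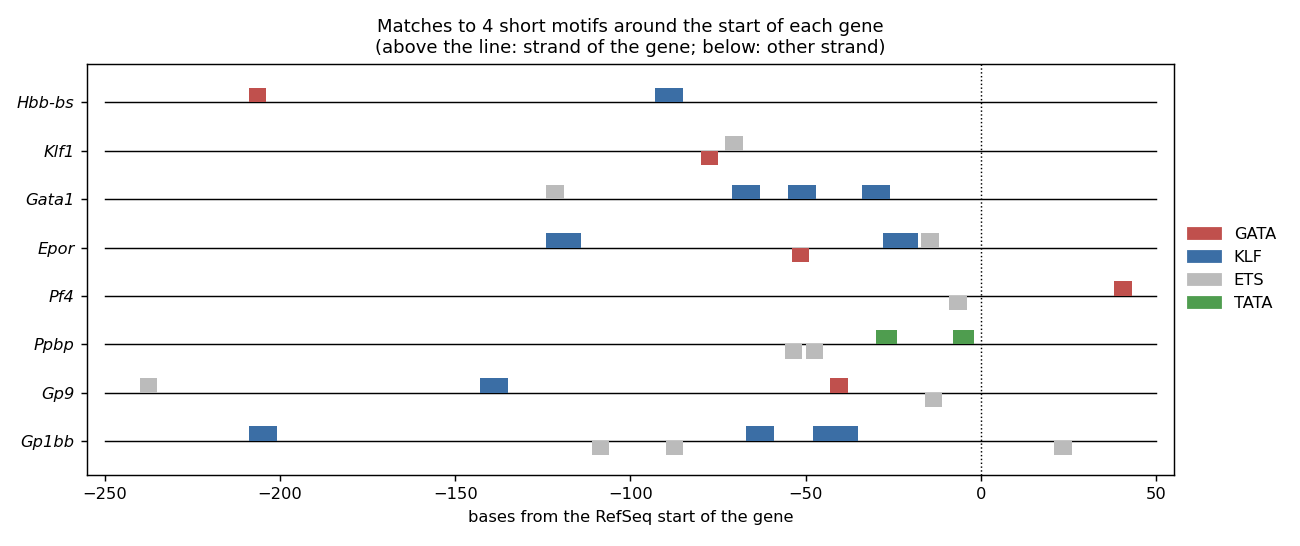
Positions of matches to GATA, KLF, ETS and TATA letters in the 300 bases around the RefSeq start of each of the 8 genes. The x axis is the distance in bases from the start (dotted line), boxes above a line are on the strand of the gene, boxes below are on the other strand, and overlapping matches merge into longer boxes. Gata1, Ppbp and Gp1bb have no GATA match, and Ppbp alone of the 8 has TATA matches.

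Reads assigned to genes ranged between 7897769 and 22167294 in the 9 differentiation libraries and between 2408531 and 4214266 in the 6 libraries of the IL4 table. Levels are given as CPM, reads of a gene scaled to a common library total after TMM normalization, and no level of the 8 genes is compared between the 2 tables. A list of 12 macrophage markers summed to between 2401 and 3375 CPM in precursor libraries, 10528 and 14628 CPM in immature and 14361 and 18383 CPM in mature macrophages, and each marker was detected in each of these groups. Messages of 13 mitochondrial genes summed to between 3415 and 4486 CPM in precursor libraries, 933 and 1614 CPM in immature and 616 and 3832 CPM in mature macrophages. Precursor replicate 3 had the highest level among the precursors of all 4 megakaryocyte genes, and precursor replicate 1 had the highest Hbb-bs.

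**Figure D2:**
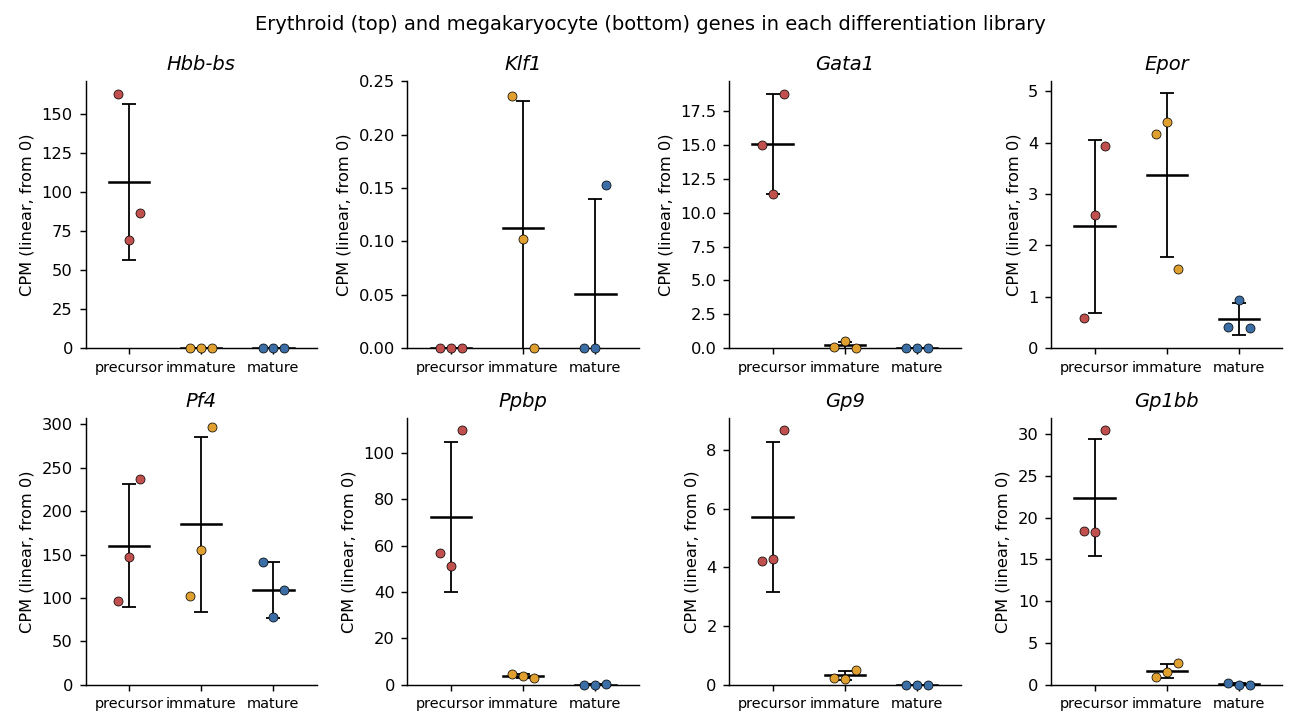
CPM of the 8 genes in each of the 9 differentiation libraries, on linear axes that start at 0 and differ between panels. Points are libraries, thick lines are group means and error bars are SD (n = 3), clipped at 0. Hbb-bs, Gata1, Ppbp, Gp9 and Gp1bb stand above 0 mainly in precursors, Pf4 overlaps in the 3 stages and Klf1 stays at or below 0.236 CPM. The mean of Epor is lowest in mature macrophages, whose range overlaps that of precursors.

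Between precursors and immature macrophages, 7 of the 8 genes had enough reads to be tested, and 5 of them were lower in immature macrophages by edgeR's quasi-likelihood test at an adjusted p under 0.05: Hbb-bs, Gata1, Ppbp, Gp9 and Gp1bb. Over all 13359 genes tested, 49.2% were called in this comparison, 22.5% as higher and 26.6% as lower. Epor and Pf4 did not pass, and Klf1 was too low to test. Between precursors and mature macrophages 6 of the 7 were lower, Epor among them, against a background of 54.3% called, 25.8% as higher and 28.5% as lower. Between immature and mature macrophages Epor, Ppbp, Gp9 and Gp1bb were lower in mature macrophages, 4 of the 7, against 14.9% of all genes called, 7.52% as higher and 7.38% as lower. None of the 7 was called higher in any stage comparison. At a stricter adjusted p under 0.001 the counts were 5, 5 and 0 in the order of these comparisons, against 16.4%, 22.2% and 1.57% of all genes. A gene whose reads lay in 1 stage alone could pass the low count filter only through that stage, so these counts describe the genes and carry no weight beyond each gene's own test. The first 2 comparisons share the precursor libraries.

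Hbb-bs, on chromosome 7 (103826534 to 103828096, minus strand), had 2471, 1720 and 1079 reads in the 3 precursor libraries and 0 reads in all 3 immature and all 3 mature libraries. That is 163, 69.5 and 86.6 CPM in precursors, and the groups did not overlap. Set against 3 reads over the whole group, Hbb-bs was at least 1015-fold lower in immature macrophages (edgeR adjusted p = 2.99e-05) and at least 1138-fold lower in mature macrophages (adjusted p = 1.90e-05) than in precursors. Hbb-bs shares 54.4% of its 31-base words with other genes, the most with its neighbour Hbb-bt, the other adult beta globin gene. The split of reads between Hbb-bs and Hbb-bt is therefore uncertain. Hbb-bs took 73.0%, 74.6% and 74.6% of the reads of the pair in the 3 precursor libraries. Hbb-bt and the alpha globin genes Hba-a1 and Hba-a2 had means of 37.8 ± 19.6, 35.3 ± 8.52 and 17.5 ± 5.78 CPM in precursors (SD, n = 3) and 0 reads in the 6 later libraries. The alpha pair also shares most of its sequence, and both alpha genes together held 22.8%, 29.0% and 32.0% of adult globin reads in precursors 1, 2 and 3. The embryonic chains Hbb-y, Hbb-bh1 and Hba-x had 0 reads in all 9 libraries. Of the 8 hemoglobin chains listed, 7 had a row and 4 were tested. Each of the 4 was lower than in precursors in immature and in mature macrophages, against 26.6% and 28.5% of all genes. Their median log2 difference in immature macrophages was -8.45 when the 0-read genes are set at their bound, against -0.07 over all genes.

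Klf1 (chromosome 8, 84901928 to 84905291, plus strand) had 0 reads in all 3 precursor libraries, where 3 reads would have been 0.0572 CPM over the group. It had 3, 1 and 0 reads in immature and 0, 0 and 2 reads in mature macrophages. The groups overlapped, the gene was below the filter, and without the filter no comparison passed (edgeR adjusted p = 0.148 for immature against precursor, 0.268 for mature against precursor and 0.847 for mature against immature). The same 3 precursor libraries held 5270 Hbb-bs reads in all.

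Gata1 (chromosome X, 7959260 to 7978071, minus strand) had 15.0, 11.4 and 18.8 CPM in precursor libraries, 0.0788, 0.512 and 0 CPM in immature macrophages, and 0 reads in mature macrophages. Precursors did not overlap with either later stage. Its log2 difference of immature against precursor was -6.17 ± 0.66 (SE; edgeR adjusted p = 1.18e-04), and -8.02 without immature replicate 2, which had the highest level of the 3. It was at least 161-fold lower in mature macrophages than in precursors (adjusted p = 3.67e-05). Mature and immature macrophages, at 0 and 6 reads in all, did not pass (adjusted p = 0.123), whereas DESeq2 gave an adjusted p of 0.0449. The authors' deposited list for that comparison does not hold Gata1. Gata1 is also a gene of mast cells and eosinophils. The 10 mast cell and basophil markers summed to between 0.895 and 1.64 CPM in immature macrophages and between 149 and 184 CPM in precursors, and all 10 were at 0 reads in mature macrophages. The 8 eosinophil markers summed to between 3.70 and 6.26 CPM in immature macrophages and between 135 and 178 CPM in precursors, and to between 7.25 and 9.49 CPM in mature macrophages, where Gata1 had 0 reads and 6 of the 8 markers were at 0 reads. Their part in the Gata1 result was not tested. In these bulk libraries, fewer cells of a type and less RNA per cell cannot be told apart.

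Epor (chromosome 9, 21958897 to 21963506, minus strand) alone of the 4 erythroid genes had 5 or more reads in every differentiation library. It had 0.593, 2.58 and 3.93 CPM in precursor libraries, 4.18, 4.40 and 1.53 CPM in immature macrophages and 0.405, 0.936 and 0.383 CPM in mature macrophages. The immature and precursor ranges overlapped, as did the mature and precursor ranges, and every mature library lay below every immature one. The log2 difference was 0.53 ± 0.63 for immature against precursor (SE; edgeR adjusted p = 0.509), -2.08 ± 0.73 for mature against precursor (adjusted p = 0.0320) and -2.61 ± 0.73 for mature against immature (adjusted p = 0.0362). Both calls rest on 18 reads in mature macrophages and do not hold with the mouse number as a block (adjusted p = 0.0540 and 0.0556) or with limma on the authors' log2 RPM (0.784 and 0.123). They held with DESeq2 (adjusted p = 0.00949 and 0.00414) and with edgeR without the low count filter (0.0224 and 0.0204). The authors' deposited lists give FDR values of 0.0293 and 9.65e-04. Without precursor replicate 2 or 3, or mature replicate 1 or 3, the mature against precursor adjusted p lay between 0.0728 and 0.118, and without any of 5 single libraries, immature 1 or 2 or mature 1, 2 or 3, the mature against immature value lay between 0.0523 and 0.119.

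Ppbp (chromosome 5, 90768518 to 90770063, plus strand) had 56.7, 51.2 and 110 CPM in precursor libraries, 4.49, 3.99 and 2.94 CPM in immature macrophages, and 0, 0 and 0.306 CPM in mature macrophages. The 3 stages did not overlap, and the mature value came from 4 reads in 1 library. The log2 difference was -4.23 ± 0.44 for immature against precursor (SE; edgeR adjusted p = 3.35e-05), -9.16 ± 0.64 for mature against precursor (adjusted p = 1.91e-06) and -4.93 ± 0.70 for mature against immature (adjusted p = 0.00130). The sizes of both mature differences rest on single libraries. Without mature replicate 3, which held all 4 reads, they were -12.87 and -8.65, fitted values against a group at 0 that are no bound, and without mature replicate 1 they were -8.55 and -4.33. Both calls held in each case.

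Pf4 starts 2371 bases beyond the end of Ppbp (chromosome 5, 90772435 to 90773383, plus strand) and did not pass the test in any stage comparison. It had 96.1, 148 and 237 CPM in precursor libraries, 102, 156 and 297 CPM in immature macrophages and 142, 77.6 and 109 CPM in mature macrophages, and all 3 ranges overlapped. The means were 160 ± 71.2, 185 ± 101 and 109 ± 32.2 CPM (SD, n = 3). The log2 difference was 0.20 ± 0.41 for immature against precursor (SE; edgeR adjusted p = 0.702), -0.55 ± 0.41 for mature against precursor (adjusted p = 0.280) and -0.75 ± 0.41 for mature against immature (adjusted p = 0.250). The immature against precursor value took the other sign without precursor replicate 1 (-0.05) or immature replicate 3 (-0.27). Within a library, Ppbp made up 37.1%, 25.7% and 31.6% of the reads of the pair in precursors, 4.22%, 2.50% and 0.981% in immature macrophages, and 0%, 0% and 0.281% in mature macrophages. Because both counts come from the same library, this share does not depend on its scaling, and its ranges in the 3 stages did not overlap.

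Gp9 (chromosome 6, 87778072 to 87779768, plus strand) had 4.21, 4.28 and 8.67 CPM in precursor libraries, 0.236, 0.205 and 0.511 CPM in immature macrophages (9 reads in all) and 0 reads in mature macrophages. Its log2 difference of immature against precursor was -4.19 ± 0.58 (SE; edgeR adjusted p = 4.57e-04), and it was at least 60.1-fold lower in mature macrophages than in precursors (adjusted p = 6.24e-05). Against immature macrophages it was at least 3.36-fold lower in mature macrophages (adjusted p = 0.0380), a call that did not hold without any 1 of the 6 libraries compared (adjusted p between 0.0646 and 0.0831). The authors' deposited list for that comparison does not hold Gp9.

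Gp1bb (chromosome 16, 18620319 to 18622403, minus strand) had 18.4, 18.3 and 30.4 CPM in precursor libraries, 0.946, 1.53 and 2.56 CPM in immature macrophages, and 0.243, 0 and 0 CPM in mature macrophages. The 3 stages did not overlap, and the log2 difference was -3.77 ± 0.49 for immature against precursor (SE; edgeR adjusted p = 1.44e-04). With 3 reads in all mature libraries, Gp1bb was 17.6-fold lower in mature than in immature macrophages (95% exact interval 5.66 to 88.2, counting error only; edgeR adjusted p = 0.00739) and 240-fold lower than in precursors (82.0 to 1167; adjusted p = 7.95e-06). All 3 reads were in mature replicate 1, and without it the mature group is at 0 and both calls held (adjusted p = 0.00760 and 3.22e-05). Gp1bb overlaps Sept5, a septin gene on the same strand, over 593 bases by the positions in the deposited table. In GENCODE M21 the annotated Sept5 is longer and covers 91.2% of Gp1bb, and another protein-coding gene of the same strand, Gm49601, covers 92.9%. Of the 31-base words of Gp1bb, 91.5% occur in transcripts of other genes, with Sept5 sharing the most. The reads of Gp1bb can therefore not be assigned with certainty. Sept5 itself had 63.4, 65.7 and 100 CPM in precursor libraries, 1.58, 2.97 and 5.11 CPM in immature macrophages and 0.243, 0 and 0 CPM in mature macrophages.

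Per kilobase of exon, the order of the mean levels in precursors was Pf4 (222 ± 98.7 CPM per kb; SD, n = 3), Hbb-bs (138 ± 64.6), Ppbp (66.9 ± 29.8), Gp1bb (10.7 ± 3.34), Gp9 (6.49 ± 2.90), Gata1 (6.18 ± 1.52), Epor (1.19 ± 0.845) and Klf1 at 0. Pf4 and Hbb-bs differed by less than the SD of Pf4, and Gp9 and Gata1 by less than the SD of either. In mature macrophages Pf4 stood at 152 ± 44.7 CPM per kb, Epor at 0.289 ± 0.158, and the other 6 below 0.1.

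The rest of the von Willebrand factor receptor went the same way as Gp9 and Gp1bb. Gp1ba, its ligand-binding chain, had 6.12, 7.79 and 19.3 CPM in precursors and 0 reads in the 6 later libraries. Gp5, another chain of the receptor, had 13.4, 15.3 and 31.8 CPM in precursor libraries, 0.473, 0.716 and 0.383 CPM in immature macrophages and 0 reads in mature macrophages. All 10 platelet glycoprotein receptor genes listed were tested, and all 10 were lower in immature than in precursor libraries, against 26.6% of all genes. Their median log2 difference was -4.60, against -0.07 over all genes. The 10 include Itga2b (-4.84 ± 0.39) and Itgb3 (-4.36 ± 0.62), the chains of the fibrinogen receptor. All 10 were also lower in mature macrophages than in precursors, against 28.5% of all genes. Of the 10, 5 were lower in mature than in immature macrophages, Gp9 and Gp1bb among them, against 7.38% of all genes. Itgb3, which is not restricted to platelets, had 22.5, 15.2 and 2.68 CPM in mature macrophages, while Itga2b had 0, 0.234 and 0.0765 CPM there.

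Among 18 genes of platelet granules and platelet cytoskeleton, 12 were lower in immature macrophages than in precursors, Ppbp among them, and 2 were higher. The shares over all genes were 26.6% and 22.5%. Another 4 of the 18 did not pass, Pf4 among them. The alpha granule factor Nbeal2 differed by -2.40 ± 0.17, the granule protein Mmrn1 by -5.01 ± 0.47, the thrombin receptor gene F2rl2 by -6.55 ± 0.76 and the secretion GTPase Rab27b by -5.34 ± 0.52 (log2, SE). Pdgfb, a growth factor of granules, and P2ry12, an ADP receptor, were higher, by 1.46 ± 0.25 and 2.28 ± 0.27. The remaining 3 that did not pass were Plek, Gng11 and P2ry1, at 0.27 ± 0.24, -0.34 ± 0.34 and -0.63 ± 0.24. In mature macrophages 13 of the 18 were lower than in precursors and 3 were higher, against 28.5% and 25.8% of all genes.

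**Figure D3:**
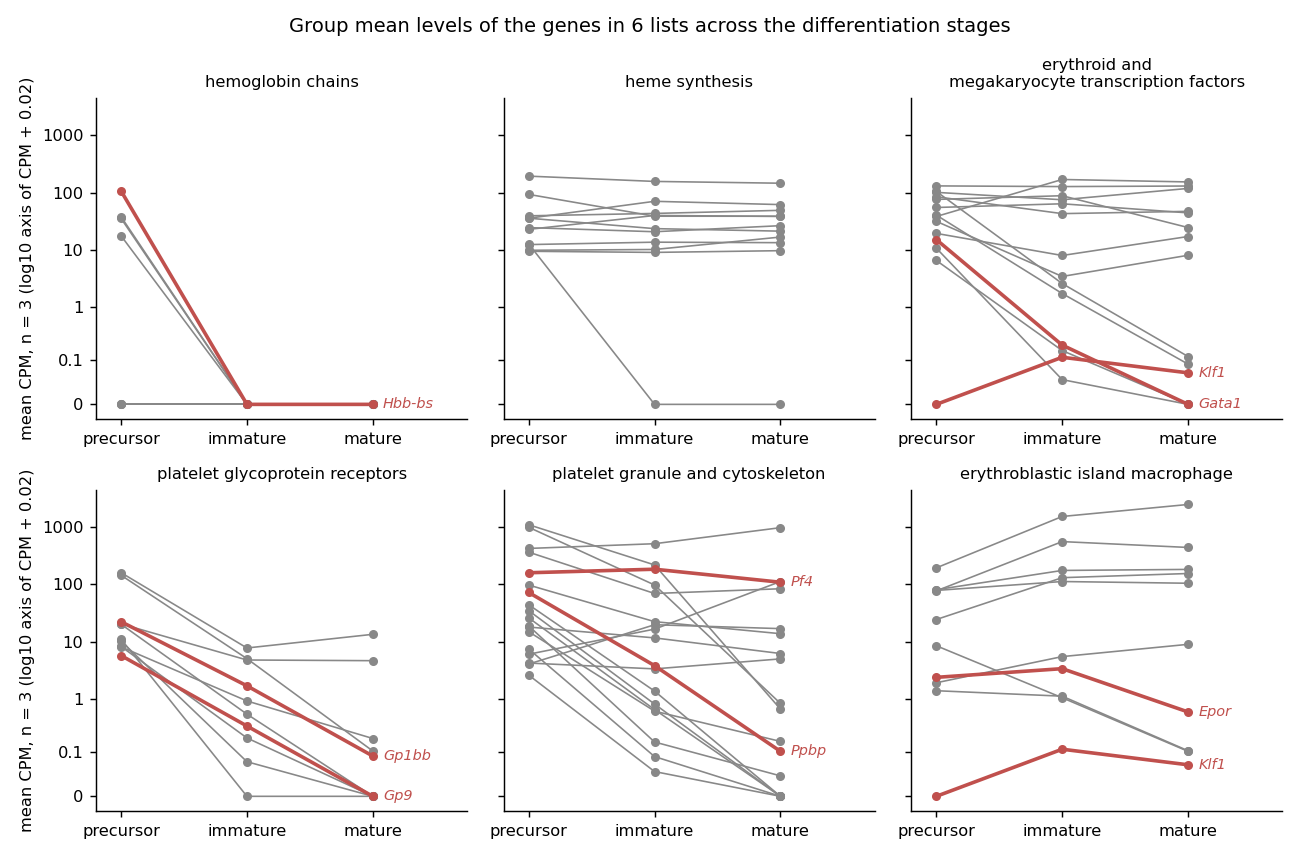
Group mean CPM (n = 3) of every gene with a row in 6 lists, by stage, on a log10 axis of CPM + 0.02. Red lines are members of the 8 genes and grey lines the other genes of each list. Hbb-bs lies at 0 after the precursor stage, Gp9 and Gp1bb are lower at each later stage, and Pf4 ends at 109 CPM in mature macrophages.

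The transcription factor list of 14 genes, Gata1 and Klf1 among them, had 13 tested. In immature macrophages 8 were lower and 1 higher than in precursors, against 26.6% and 22.5% of all genes. Nfe2, the factor of late platelet formation, had means of 2.56 CPM in immature macrophages and 105 CPM in precursors (-5.37 ± 0.40), Cbfa2t3 differed by -4.54 ± 0.38, and Gata2, the sister of Gata1 in early progenitors and mast cells, by -7.96 ± 0.71. Lmo2, the bridging protein of the GATA and Tal1 complex, was higher by 2.15 ± 0.23, at 189, 156 and 162 CPM in immature macrophages and 40.1, 36.9 and 37.5 CPM in precursors. The factors Fli1, Ldb1, Lyl1 and Mef2c did not pass.

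In heme synthesis all 11 genes of the list were tested between immature macrophages and precursors. Of these 3 were lower and 2 higher, against 26.6% and 22.5% of all genes. Their median log2 difference was -0.07, the same as over all genes. Alas2, the erythroid form of the first enzyme, had 20.0, 11.9 and 5.94 CPM in precursors and 0 reads later, at least 130-fold lower in immature macrophages. Alas1, the form of other tissues, had means of 156 CPM in immature macrophages and 193 CPM in precursors and did not pass (-0.31 ± 0.22, adjusted p = 0.258). The other 2 lower genes were Ppox (-0.60 ± 0.20) and the mitochondrial iron importer gene Slc25a37 (-1.26 ± 0.31), and the 2 higher ones were Urod (0.81 ± 0.18) and Fech (0.98 ± 0.21). Of 19 red cell membrane and cytoskeleton genes, 7 were tested and 6 were lower in immature macrophages, against 26.6% of all genes. The 6 include Sptb (erythroid beta spectrin) at -4.47 ± 0.43, Car2 (a carbonic anhydrase) at -6.13 ± 0.58 and Hemgn at -6.07 ± 0.85.

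Against 26.6% of all genes lower in immature macrophages, 4 were lower among the 10 genes of erythropoietin signalling tested. The list holds 11 genes, and Epor was among those tested. The 4 lower genes were Jak2, the kinase bound to the receptor (-1.40 ± 0.16), the factors Stat5b (-0.77 ± 0.18) and Stat5a (-0.66 ± 0.22), and the kinase Lyn (-0.58 ± 0.17). Between mature macrophages and precursors 7 of the 10 were lower, Epor among them, and 1 was higher, the survival gene Bcl2l1 (2.21 ± 0.48). Of all genes 28.5% were lower and 25.8% higher there.

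Across these 7 lists, 83 genes besides the 8 were listed and 66 were tested between immature macrophages and precursors. Of these 42 were lower and 5 higher, 71.2% called against 49.2% of all genes (26.6% lower, 22.5% higher). Between mature macrophages and precursors 44 were lower and 8 higher, 78.8% against 54.3% (28.5% lower, 25.8% higher). Between mature and immature macrophages 16 were lower and 5 higher, 31.8% against 14.9% (7.38% lower, 7.52% higher). Genes such as Alas2 and Gp1ba, at 0 reads after the precursor stage, could pass the low count filter only through precursors. These shares therefore carry no weight beyond each gene's own test. Markers of other marrow cells moved with these genes. The 10 neutrophil markers, led in level by S100a9, summed to between 146 and 208 CPM in immature macrophages and between 13096 and 19604 CPM in precursors. The 8 B cell markers, led by Cd79a, summed to between 2.13 and 2.94 CPM in immature macrophages and between 294 and 422 CPM in precursors, and the 10 progenitor markers, led by Myb, to between 11.0 and 12.2 CPM and between 349 and 448 CPM. In mature macrophages 7 of the 10 neutrophil, 6 of the 8 B cell and 7 of the 10 progenitor markers were at 0 reads. Their part in the differences of the 8 genes was not tested.

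Of 10 genes known from erythroblastic island macrophages, Epor and Klf1 among them, 9 were tested, and 6 were higher and 1 lower in immature macrophages than in precursors, against 22.5% and 26.6% of all genes. In mature macrophages 5 were higher and 3 lower than in precursors, against 25.8% and 28.5%, and the lower ones were Epor, Vcam1 and Spic, a factor of iron-recycling macrophages. Between immature macrophages and precursors, Adgre1, the F4/80 antigen, was higher by 2.98 ± 0.35, Mertk, a receptor for dying cells, by 2.42 ± 0.32, and Dnase2a, the lysosomal nuclease that digests expelled nuclei, by 1.12 ± 0.21. Vcam1, the adhesion molecule that binds erythroblasts, differed by -3.04 ± 0.56, at 1.03 ± 0.465 CPM in immature macrophages and 8.50 ± 1.66 CPM in precursors (SD, n = 3). Adgre1 and Mertk also belong to the 12 general macrophage markers, of which 10 were higher in immature macrophages than in precursors. The median log2 difference of those markers was 2.38, against 1.12 for the island list.

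Over the 9 differentiation libraries, the genes whose log2 CPM followed each of the 7 tested genes most closely among 13358 others were listed by Pearson's r, as a description of libraries that come in 3 stages. Gp1bb was followed by Sept5 (0.999), Glipr2 (0.996) and Itga1 (0.996), Gp9 by Gcsam (0.998), Samd14 (0.996) and Sntb1 (0.995), and Ppbp by Palm (0.998), Sox4 (0.995) and Plbd1 (0.995). Gata1 was followed by Gipc3, Adgrl4 and Zfp507, each at 0.997, and Hbb-bs by Tmod2, Il31ra and Gm36936, each at 1.0 after rounding. For these 5 genes between 228 and 828 others had r above 0.95, so closeness of this order was common. Epor was followed by Ada (0.939), Gstt1 (0.936) and Csk (0.934), and Pf4 by Hps4 (0.905), A430106G13Rik (0.897) and Atp5f1 (0.876), and neither had any gene above 0.95.

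The IL4 table asks what 48 h of IL4 did to mature macrophages. Pf4 was the 1 gene of the 8 with enough reads to be tested, and it was lower with IL4, where 20.8% of 8936 genes were called, 10.5% as higher and 10.3% as lower (5.82% at an adjusted p under 0.001, which Pf4 also passed). It had 77.7, 84.1 and 108 CPM with IL4, against 399, 300 and 584 CPM in unstimulated macrophages, and the groups did not overlap. The means were 89.8 ± 15.8 CPM with IL4 and 427 ± 144 CPM without (SD, n = 3), a log2 difference of -2.25 ± 0.25 (SE; edgeR adjusted p = 1.13e-04). The call held under all 12 alternatives tried, with adjusted p between 1.15e-16 and 9.90e-04. The authors' deposited table lists Pf4 at an FDR of 8.59e-15.

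Epor had 0, 0 and 0 reads with IL4, against 7, 2 and 7 reads in unstimulated macrophages, at least 4.86-fold lower with IL4. It fell below the low count filter. Without that filter edgeR gave an adjusted p of 0.00835 over 11378 genes, the authors' deposited table gives an FDR of 0.00243, and an exact two-sided permutation test of the CPM gave p = 0.1, the smallest that 3 against 3 allows. Ppbp had 0 reads in the 3 IL4 libraries, against 2, 1 and 3 reads in unstimulated libraries, and did not pass without the filter (edgeR adjusted p = 0.0983). Klf1, Gata1, Gp9 and Gp1bb had 0 reads in all 6 libraries, where 3 reads over a group would be 0.306 CPM with IL4 and 0.279 CPM without. At this depth a lower level of these 4 was not detectable. The 0s may also depend on how this table was counted. The 13 mitochondrial messages summed to 0 CPM in the IL4 libraries and to at most 0.235 CPM in the unstimulated ones, and Fech had 0.724 ± 0.644 CPM in unstimulated macrophages of this table, against 61.6 ± 17.2 CPM in mature macrophages of the other (SD, n = 3). The part of the counting in the 0s of the 4 genes was not tested.

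Markers of macrophages and eosinophils moved beside Pf4. The 11 macrophage markers with a row summed to between 6398 and 7727 CPM with IL4 and between 8543 and 12403 CPM in unstimulated macrophages, and none was at 0 reads. Of the 10 tested, 6 were lower with IL4 and none higher, against 10.3% and 10.5% of all genes. The median log2 difference was -0.89, against 0.01 over all genes. C1qa, one of these markers, averaged 2.97 ± 1.09 CPM in unstimulated macrophages here and 2572 ± 752 CPM in mature macrophages of the differentiation table (SD, n = 3). These sums may therefore depend on how the IL4 table was counted, which was not tested. The 7 eosinophil markers with a row summed to between 21.7 and 43.9 CPM with IL4 and between 0.986 and 4.95 CPM without. The 2 detected, Ccr3 and Ear2, were both higher with IL4, and the granule genes Prg2 and Epx were at 0 reads. The 10 mast cell and basophil markers and the 8 B cell markers were at 0 reads in the 6 libraries, and the 10 neutrophil and 10 progenitor markers each summed to at most 3.31 CPM. The part of these markers in the Pf4 result was not tested.

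The 7 CXC chemokine genes of the Pf4 locus had 2 tested with IL4, Pf4 and Cxcl2, a neutrophil attractant. Both were lower, against 10.3% of all genes. Cxcl2 had 7.50, 2.65 and 1.98 CPM with IL4, against 52.3, 8.24 and 11.3 CPM in unstimulated macrophages (-2.55 ± 0.71, adjusted p = 0.0259). Cxcr3, a receptor through which Pf4 acts, was lower as well, at 0.268, 0.993 and 0.329 CPM with IL4 and 4.22, 4.95 and 4.19 CPM without (-3.02 ± 0.47, adjusted p = 9.16e-04).

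Other genes of the platelet lists moved in both directions with IL4, and those named here were chosen after their values were seen. Itgb3 had 57.6, 66.2 and 85.9 CPM with IL4, against 3.29, 3.71 and 4.44 CPM in unstimulated macrophages, and was higher by 4.18 ± 0.26 on the log2 scale (edgeR adjusted p = 2.56e-06). Vwf, the ligand of the receptor that holds Gp9 and Gp1bb, had 60.8, 49.0 and 113 CPM with IL4, against 1.88, 1.65 and 2.71 CPM without, and was higher by 5.10 ± 0.40 (adjusted p = 1.26e-05). P2ry12 was lower, at 2.68, 2.98 and 3.62 CPM with IL4 and 60.3, 47.0 and 65.6 CPM without (-4.22 ± 0.26). Of the 33 genes of the 7 lists tested here besides Pf4, 9 were higher and 10 lower with IL4. That is 57.6% called, against 20.8% of all genes (10.5% higher, 10.3% lower). The groups of Pf4, Itgb3, Vwf and P2ry12 did not overlap, and the share of all genes without overlap was not counted.

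**Figure D4:**
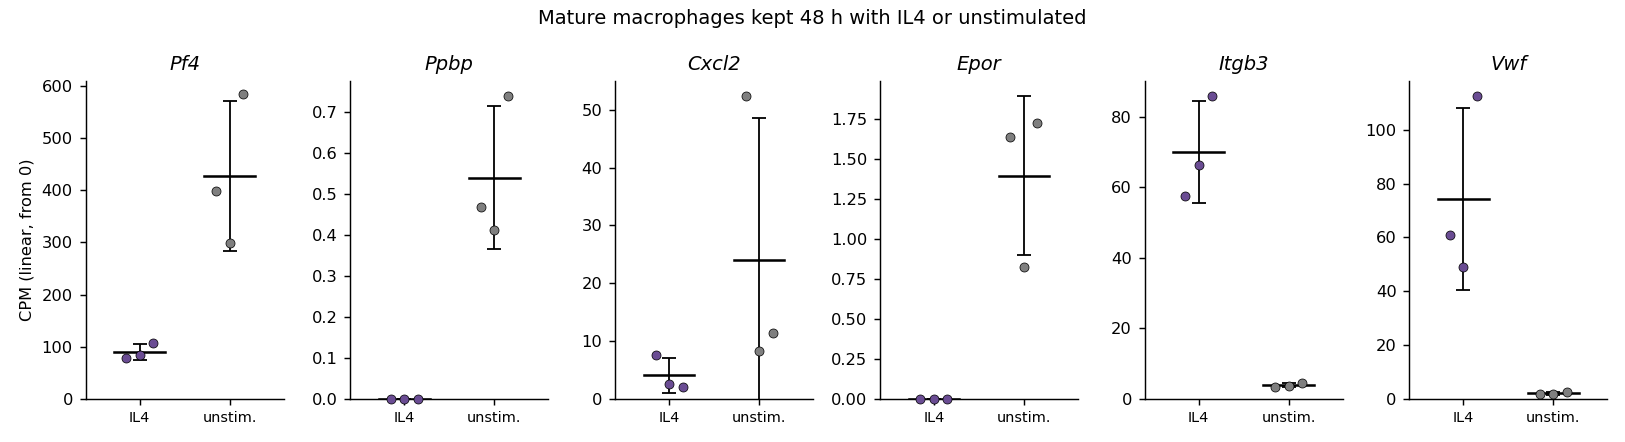
CPM of Pf4, Ppbp, Cxcl2, Epor, Itgb3 and Vwf in macrophages kept 48 h with IL4 (left, purple) or unstimulated (right, grey), on linear axes that start at 0 and differ between panels. Points are libraries, thick lines group means and error bars SD (n = 3), clipped at 0. Pf4 lies between 77.7 and 108 CPM with IL4 and between 300 and 584 CPM without, while Itgb3 and Vwf are higher with IL4.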

How the data were processed

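Per the file headers, the deposited tables hold unnormalized counts for 9 differentiation libraries and for 6 libraries with or without IL4, each beside a table of log2 RPM. HISAT2 2.0.5 and edgeR are named in the submitters' processing notes, with the builds GRCm38.p6 and GRCm39.p6. How reads were counted, and whether by strand, is not given in the sources used here. Lists by the authors, also deposited, give FDR values, a kind of adjusted p-value. The counts of each table were tested with edgeR 4.0.16 in R 4.3.3, with TMM scaling, filterByExpr at a minimum count of 10, the quasi-likelihood F test and Benjamini-Hochberg adjustment over all genes tested (threshold 0.05). SE is the log2 difference divided by the square root of F. Only the edgeR fit was tried on simulated counts, for immature against precursor and IL4 against unstimulated. Far fewer genes were changed there than were called in these data, and the other steps were not simulated. Intervals and the floor of 3 reads over a group cover counting error only.

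Alternatives were RLE scaling, DESeq2 1.42.0, no low count filter, 1 CPM in at least 3 libraries, limma 3.58.1 on the deposited log2 RPM, the mouse number as a block, a threshold of 0.001, only the 6 libraries compared, and each library left out. Deviations of same-numbered libraries correlated at 0.591, 0.175 and 0.413 in the IL4 table and between -0.129 and 0.165 in the differentiation table. Libraries of different number in the IL4 table correlated between -0.487 and 0.247. The main tests of both tables used the group only and no pairing. The number entered as a block only in an alternative, where Pf4 with IL4 had an edgeR adjusted p of 2.95e-08. The titles give a mouse number in each group, but the descriptions of the 6 IL4-table libraries each carry a different number, so whether a number marks 1 animal across groups is not clear. P-values measure the spread between these libraries. The genes and lists were chosen with earlier results of these data known. Named genes are the 8 genes, up to 4 per list with the lowest p among those called between immature macrophages and precursors at 1 CPM or more, the most abundant marker of other cell types, and the 3 genes of closest pattern; others were chosen after their values were seen. The 3 columns of group means were not used. Exon lengths and overlaps came from GENCODE M21 on GRCm38, in which 7 of the 8 genes have the start and end of the deposited table. C1qa averaged 2.97 ± 1.09 CPM in unstimulated macrophages of the IL4 table and 2572 ± 752 CPM in mature macrophages of the other (SD, n = 3), so levels are not compared across tables.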

Additional observations from a re-analysis of the deposited data

How the results depend on the processing

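The 5 calls between immature macrophages and precursors were the count under every alternative tried. Between mature macrophages and precursors 5 or 6 genes were called under every alternative. Between mature and immature macrophages the count of 4 ranged between 2 and 3 when 1 library was left out (2 without immature replicate 1 or 2 or any mature one), was 5 with DESeq2, was 3 with the replicate block, and was 0 at an adjusted p under 0.001, where 1.57% of all genes were called. For the genes of the 7 lists the count of 21 in that comparison was 12 in a fit of the 6 libraries alone and between 12 and 23 when 1 library was left out, lowest without immature replicate 2. With IL4 the test called 1 gene, and 2 without a low count filter, Epor being the other. The Pf4 difference between immature macrophages and precursors ranged between -0.27 (without immature replicate 3) and 0.60 when 1 library was left out, and was -0.05 without precursor replicate 1. With the mouse number as a block the IL4 call of Pf4 was the same and the Epor calls were lost (-2.02 and -2.68, adjusted p = 0.0540 and 0.0556); the cause was not tested. Over single genes, 260 alternatives left the call and direction as they were, 19 lost a call, all of Epor or Gp9, and 1 gained one. Between 0 and 9 reads over a group limit Klf1, Gata1 and Gp9 in immature and mature macrophages and Ppbp and Gp1bb in mature ones.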
